A study of Homo sapiens with 6 samples.

Results

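Interferon regulatory factors (IRFs) are transcription factors that share an N-terminal DNA-binding domain and control interferon and immune genes. Examined here were 8 of them (IRF1, IRF2, IRF3, IRF4, IRF5, IRF7, IRF8 and IRF9) and CARINH, a long noncoding RNA gene next to IRF1 that older annotation calls C5orf56. Members were all probe sets whose platform annotation gives 1 of these 9 symbols as the only gene. This gave 17 of the 54613 probe sets other than controls, and 9 of the 19775 genes measured. CARINH had 4 probe sets, IRF4 and IRF5 had 3 each, IRF1 had 2, and IRF2, IRF3, IRF7, IRF8 and IRF9 had 1 each. A further probe set, annotated with both RNF31 and IRF9, was left out.

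All samples come from 1 established human cell line, MOLM-14, derived from an acute myeloid leukaemia with an MLL-AF9 rearrangement. The control group, 3 samples, was kept in DMSO for 24 h, and the treated group, 3 samples, in 10 nM cortistatin A (CA) for 24 h. CA is a natural steroidal alkaloid that inhibits CDK8 and CDK19, which serve Mediator as its kinases. Mediator is the complex that carries signals from transcription factors to RNA polymerase II. Each sample was hybridised to 1 Affymetrix U133 Plus 2.0 array, and the question is how blocking these kinases alters transcript levels.

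In textbook accounts, IRF1 is induced by interferon gamma and activates antigen presentation and guanylate-binding protein genes, while IRF2 competes for the same sites and often represses them. IRF3 and IRF7 are kept in the cytoplasm until phosphorylated after viral sensing, and then switch on the type I interferon genes. IRF9 is part of ISGF3, the factor through which type I interferon acts. IRF4 and IRF8 bind DNA with partners such as PU.1 in lymphoid and myeloid cells, and IRF8 is needed for monocyte and dendritic cell development.

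After CA, 5 of the 9 genes rose and 0 fell: IRF1, IRF2, IRF7, IRF8 and CARINH. That is 55.6% of the members, against 6.64% of all genes called higher and 4.49% called lower at an adjusted p under 0.05 (limma, Benjamini-Hochberg over all genes). By probe set, 9 of 17 rose and 0 fell, against 3.0% of all probe sets called higher and 2.01% called lower. The median log2 change was 0.45 over the members and -0.0034 over all genes. In the same 5 genes all 3 CA values lay above all 3 DMSO values, as they did in 16.6% of all genes. The study is known to have followed IRF1 and IRF8, so their direction is not independent evidence. All 9 members were chosen with earlier results of these data known, so the share called higher is not independent evidence either. These are bulk samples, in which a larger share of expressing cells and more RNA per cell cannot be told apart.

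Arrays of the same group differed by a median of 0.0865 to 0.0910 per probe set on the log2 scale, and arrays of different groups by 0.109 to 0.119. As a sign of RNA integrity, GAPDH control probes at the 3′ end exceeded those at the 5′ end by 0.35 to 0.40 in DMSO and 0.44 to 0.53 in CA (exact permutation p = 0.1, the smallest that 3 against 3 allows). For ACTB control probes the same difference was 2.15 to 2.40 in DMSO and 2.34 to 2.46 in CA, and the groups overlapped (exact permutation p = 0.3). The part of RNA integrity in the results was not tested. Of 9 measured myeloid leukaemia markers, the receptor tyrosine kinase gene FLT3 was at 11.69 ± 0.02 and the lysozyme gene LYZ at 13.38 ± 0.10 in DMSO (log2, SD, n = 3). The monocyte markers CD14, at 4.36 ± 0.18, and FCGR1A, at 4.05 ± 0.12, were dim, FCGR1A below the arrays' lower quartile, and SPI1, at 5.51 ± 0.12, was below their median of 5.62. Of these 9 markers, 3 fell: PTPRC (-0.59), ITGAM (-0.45) and CSF1R (-0.39). Their mean level was 7.94 to 8.0 in DMSO arrays and 7.82 to 7.87 in CA arrays. In lists for other cell types, 0 of 5 T cell, 0 of 4 B and plasma cell, 0 of 4 conventional dendritic cell and 0 of 4 erythroid and epithelial markers were called. Of 5 plasmacytoid dendritic cell markers, 2 rose, the interleukin-3 receptor IL3RA (0.89) and NRP1 (0.37). NRP1 was near the threshold (adjusted p = 0.0399), and none of its 4 probe sets passed the test over all probe sets. The other 3 markers, CLEC4C, LILRA4 and TCF4, were uncalled. CLEC4C, a defining marker, was at 3.27 ± 0.06 in DMSO and 3.30 ± 0.11 in CA, below the arrays' lower quartile of 4.13 and 4.12. The mean level of this list was 6.73 to 6.81 in DMSO arrays and 6.98 to 7.14 in CA arrays, and its part in the changes of IRF7 and IRF8, which such cells also express, was not tested.

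**Figure D1:**
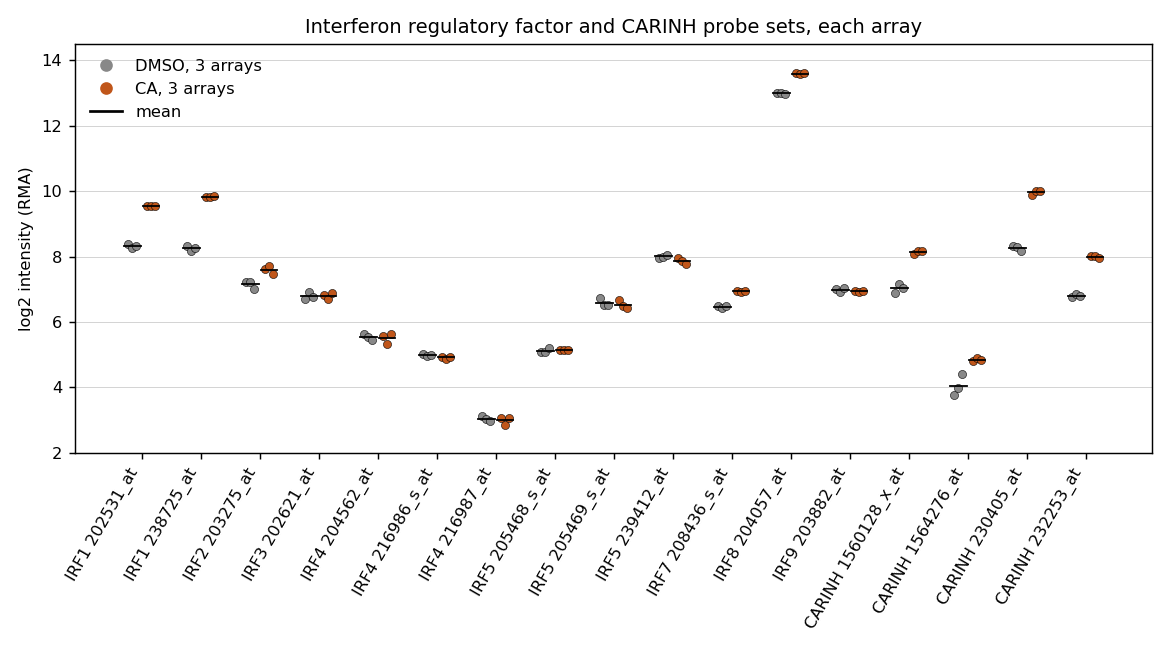
Log2 intensity (vertical axis, RMA) of each of the 17 probe sets on each array, with 3 DMSO arrays in grey, 3 CA arrays in orange and a bar at each mean. In both IRF1 and all 4 CARINH probe sets, and in those of IRF2, IRF7 and IRF8, the orange points lie above the grey ones. Levels of different probe sets depend on their probes and are not comparable with each other.

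IRF1 rose on both of its probe sets. On the brighter of them, which stands for the gene, the DMSO values were 8.33, 8.17 and 8.26 and the CA values 9.83, 9.83 and 9.84. The groups were separated by 1.49, and the CA arrays spanned less than the DMSO arrays. The gene was 2.99-fold higher (log2 change 1.58, SE 0.05, 95% confidence interval 1.46 to 1.70, adjusted p = 3.15e-05), which ranked 16 among the rises of all genes. On the other probe set the DMSO values were 8.38, 8.25 and 8.33 and the CA values 9.53, 9.55 and 9.55, a 2.33-fold difference (adjusted p = 8.44e-05 over all probe sets). The difference between the probe sets within each array was -0.09 to -0.04 in DMSO and 0.29 in each CA array, so that they measured unequal changes (0.36 apart, exact permutation p = 0.1, the smallest possible). RMA compresses changes by an amount that varies between probe sets, and its part in this difference was not tested.

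CARINH rose on all 4 of its probe sets. On the brightest, which stands for the gene, the DMSO values were 8.33, 8.31 and 8.17 and the CA values 9.89, 10.003 and 9.995. The gene was 3.24-fold higher (log2 change 1.69, SE 0.06, 95% confidence interval 1.55 to 1.84, adjusted p = 3.72e-05), which ranked 12 among the rises of all genes. On another, values of 6.77, 6.86 and 6.80 in DMSO became 8.0, 8.02 and 7.96 in CA (2.28-fold). On a probe set of the _x_at kind, whose probes may match other transcripts, 6.87, 7.17 and 7.03 became 8.08, 8.17 and 8.16 (2.16-fold). The groups did not overlap on any of the 4. The remaining probe set was dim, at 3.75, 3.97 and 4.4 in DMSO against 4.81, 4.88 and 4.83 in CA. Its log2 change of 0.80 passed the test over all probe sets (adjusted p = 0.0301), but CARINH on this probe set failed it when any array other than DMSO replicate 3 was dropped (0.0625 to 0.108). Since its DMSO mean was below the lower quartile of the arrays, the size of that change is uncertain. The change of CARINH exceeded that of IRF1 by 0.12 within arrays (exact permutation p = 0.2), and the SD of that difference among the DMSO arrays was also 0.12. With the mean of all probe sets taken for each gene, IRF1 was at 1.40 and CARINH at 1.2.

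The promoters of IRF1 and CARINH are shown because these neighbours rose the most of the members. In RefSeq (GRCh38.p14) CARINH lies on the plus strand and IRF1 on the minus strand, and their annotated starts are 79.8 kb apart. The table of promoters used here held 6 of the 9 members, IRF1, IRF4, IRF5, IRF8, IRF9 and CARINH. The 250 bases before each start were searched on both strands for 4 sets of letters. They were TTCNNNGAA, the core of the GAS element of interferon gamma signalling, GAAANNGAA, the core of IRF and ISGF3 sites, GGAANNGAA, the core of composite ETS-IRF sites, and the kappa B consensus of NF-kB. The IRF and ETS-IRF cores can overlap. Over 35097 promoters, the share with a match was 6.56%, 6.88%, 6.58% and 5.20% respectively. The sequences run 5′ to 3′ on the strand of the gene, with matches in capitals.
IRF1, chr5:132490774-132491023, minus strand: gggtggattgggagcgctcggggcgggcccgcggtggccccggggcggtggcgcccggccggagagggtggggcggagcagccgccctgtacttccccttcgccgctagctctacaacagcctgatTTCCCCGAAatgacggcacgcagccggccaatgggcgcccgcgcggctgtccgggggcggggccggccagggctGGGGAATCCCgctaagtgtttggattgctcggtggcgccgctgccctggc
CARINH, chr5:132410679-132410928, plus strand: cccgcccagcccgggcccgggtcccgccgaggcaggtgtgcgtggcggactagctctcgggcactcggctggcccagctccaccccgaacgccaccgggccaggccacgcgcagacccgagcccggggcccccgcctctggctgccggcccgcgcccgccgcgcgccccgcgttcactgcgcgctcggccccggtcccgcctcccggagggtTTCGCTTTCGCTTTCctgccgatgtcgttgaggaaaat
In the IRF1 promoter the first capitals are a GAS match, TTCCCCGAA, at -124 to -116 from the start, and the second a kappa B match that reads on both strands, at -50 to -41. The CARINH promoter held neither. Its capitals are a pair of overlapping IRF matches on the minus strand, at -38 to -30 and -32 to -24. A match describes letters only, and binding was not measured.

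Among the other measured genes around IRF1 and CARINH, changes were smaller and mixed. SLC22A5, the carnitine transporter on the far side of CARINH from IRF1, rose from 5.27 ± 0.08 to 5.92 ± 0.05 (SD, n = 3), a log2 change of 0.65 with an adjusted p of 9.33e-04, on 1 of its 2 probe sets. RAD50, a DNA repair gene beyond IL5, rose by 0.30 (adjusted p = 0.00749) on 1 of 3 probe sets, and was uncalled once _x_at and _s_at probe sets were dropped (0.23, adjusted p = 0.247). SLC22A4, a related transporter gene, fell by 0.33 (adjusted p = 0.0235). The call of SLC22A4 did not survive the loss of any single array other than DMSO replicate 3 (0.0554 to 0.0828). The cytokine gene IL5 (-0.04), MIR3936HG (0.11) and TH2LCRR (0.23) were uncalled.

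**Figure D2:**
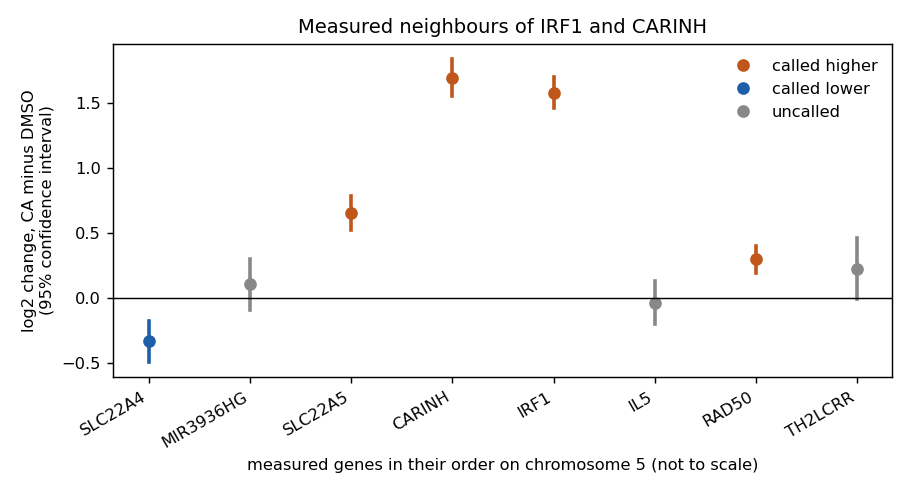
Log2 change, CA minus DMSO, with 95% confidence intervals (vertical axis) for the measured genes around IRF1 in their order on chromosome 5 (horizontal axis, not to scale). CARINH and IRF1 stand at 1.69 and 1.58, SLC22A5 at 0.65 and RAD50 at 0.30, and SLC22A4 is the gene called lower.

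IRF8, the myeloid IRF, rose 1.52-fold on its single probe set. The DMSO values were 13.01, 13.00 and 12.98 and the CA values 13.61, 13.57 and 13.61. The groups were 0.56 apart, against a range of 0.03 among DMSO arrays and 0.04 among CA arrays. The log2 change was 0.60 (SE 0.04, 95% confidence interval 0.52 to 0.69, adjusted p = 2.07e-04). At this brightness, near the top of the arrays' range, an array may understate a change. The table of promoters held 2 IRF8 starts, at chr16:85902830 and chr16:85903015, and none of the 4 motifs was found in the 250 bases before them. Bases before any other IRF8 start were not searched, so IRF8 cannot be said to lack these motifs. The 3 measured genes on each side of IRF8, which include COX4I1 (-0.07), were all uncalled.

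IRF4, its closest relative in the family and a lymphoid and plasma cell factor, was uncalled on all 3 probe sets. On the probe set that stands for the gene, the values were 5.62, 5.55 and 5.46 in DMSO and 5.56, 5.31 and 5.64 in CA, and the groups overlapped (log2 change -0.04, 95% confidence interval -0.26 to 0.18, adjusted p = 0.836). On an _s_at probe set the CA values, 4.94, 4.87 and 4.93, lay just below the DMSO values of 5.01, 4.96 and 5.0 (-0.08, adjusted p = 0.447 over all probe sets). The third was at 2.96 to 3.13 in DMSO and 2.85 to 3.07 in CA, below the lower quartile, where little can be read from it.

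IRF7, the inducible partner of IRF3 in antiviral signalling, rose 1.40-fold on its single probe set. Its values were 6.48, 6.41 and 6.49 in DMSO and 6.95, 6.92 and 6.96 in CA, with no overlap (log2 change 0.48, SE 0.04, 95% confidence interval 0.39 to 0.57, adjusted p = 7.75e-04). The probe set ends in _s_at, so its probes can match several transcripts. IRF3, which is present without induction and is controlled by phosphorylation, was at 6.71, 6.93 and 6.75 in DMSO and 6.84, 6.70 and 6.88 in CA. The groups overlapped, and the log2 change of 0.0079 had a 95% confidence interval of -0.17 to 0.19 (adjusted p = 0.965). The 6 measured neighbours of IRF7 were uncalled.

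IRF2, the competitor of IRF1, rose 1.36-fold on its single probe set. Its values were 7.22, 7.22 and 7.02 in DMSO and 7.63, 7.71 and 7.46 in CA, and the groups were 0.23 apart, while the CA arrays alone spanned more than that (log2 change 0.45, SE 0.09, 95% confidence interval 0.24 to 0.65, adjusted p = 0.0216). The call was lost when CA replicate 1 (adjusted p = 0.0742), CA replicate 2 (0.0659), DMSO replicate 2 (0.0542) or DMSO replicate 3 (0.0625) was left out, with changes of 0.38 to 0.48. Within arrays the change of IRF1 exceeded that of IRF2 by 1.13 (exact permutation p = 0.1, the smallest possible). Of its measured neighbours, ACSL1, a fatty acid activating enzyme, rose by 0.64 (adjusted p = 2.07e-04) and STOX2 fell by 0.32 (0.00845), though not on the mean of its probe sets (-0.14, adjusted p = 0.102). The other 4 were uncalled.

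IRF5, which acts below Toll-like receptors in myeloid cells, was uncalled on its 3 probe sets. On the probe set that stands for the gene, the CA values of 7.96, 7.85 and 7.76 lay below the DMSO values of 7.96, 8.0 and 8.05, separated by 0.0052 (log2 change -0.15, 95% confidence interval -0.29 to -0.01, adjusted p = 0.177). On the other probe sets (-0.05 and 0.03) the groups overlapped. In the table of promoters IRF5 has 4 starts, and 1 of them held a match, to the ETS-IRF core at -32 to -24.

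IRF9, the DNA-binding subunit of ISGF3, was likewise uncalled. Its values were 7.0, 6.90 and 7.04 in DMSO and 6.95, 6.90 and 6.95 in CA, which overlapped (log2 change -0.04, 95% confidence interval -0.16 to 0.07, adjusted p = 0.629). Its promoter is shown because it holds the same GAS core letters as that of IRF1, at -63 to -55 from the start, although the 2 genes differed in their measured change.
IRF9, chr14:24161015-24161264, plus strand: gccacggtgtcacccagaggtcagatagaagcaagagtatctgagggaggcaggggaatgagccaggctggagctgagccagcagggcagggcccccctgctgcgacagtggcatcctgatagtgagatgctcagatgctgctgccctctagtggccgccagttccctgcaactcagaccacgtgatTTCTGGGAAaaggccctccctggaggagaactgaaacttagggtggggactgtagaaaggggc
In the promoter of IRF4 none of the 4 motifs was found.

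**Figure D3:**
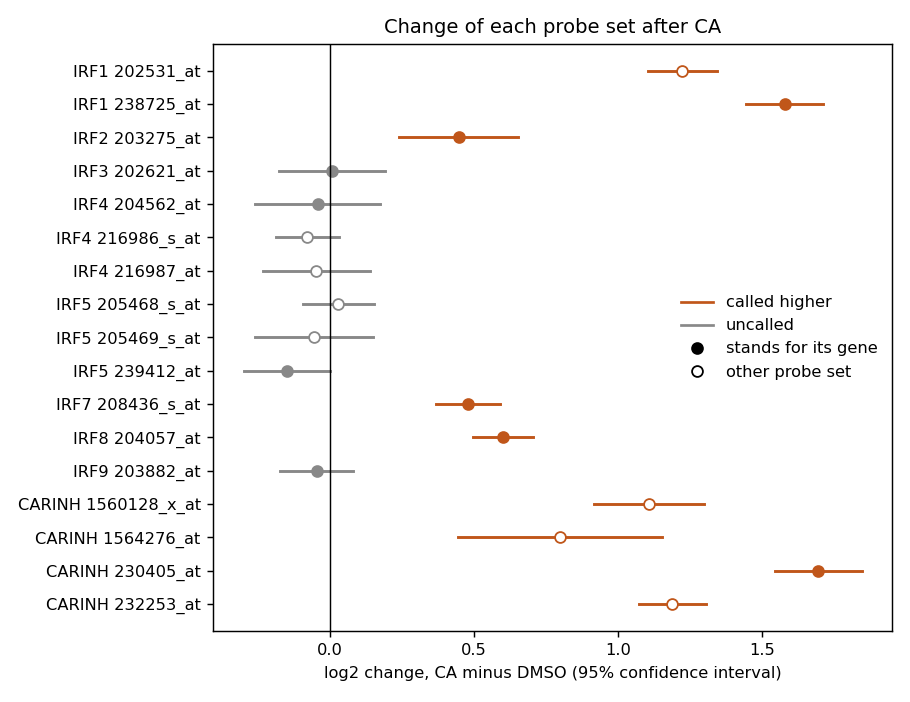
Log2 change, CA minus DMSO, of each of the 17 probe sets with its 95% confidence interval (horizontal axis), orange where called higher and grey where uncalled. Filled points are the probe sets that stand for their genes. All 4 CARINH and both IRF1 intervals lie above 0, as do those of IRF2, IRF7 and IRF8, while those of IRF3, IRF4, IRF5 and IRF9 include 0 in this fit over all probe sets.

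Among genes known as targets of IRF1 and interferon gamma 20 rose and 1 fell, and among those of the type I interferon factor ISGF3 4 rose and 12 fell. Of 36 measured IRF1 and interferon gamma targets, 20 rose and 1 fell (55.6% and 2.78%, against 6.64% and 4.49% of all genes), with a median log2 change of 0.26. The lists were chosen with earlier results of these data known, so such shares are not independent evidence. The chemokine gene CXCL10, with values of 7.26 ± 0.12 in DMSO and 10.06 ± 0.07 in CA (log2, SD, n = 3), changed by 2.79. GBP5 went from 6.10 ± 0.16 to 8.09 ± 0.14 (1.99), GBP2 from 8.24 ± 0.09 to 10.05 ± 0.08 (1.82) and CXCL11 from 4.52 ± 0.18 to 6.24 ± 0.02 (1.72), all called on each of their probe sets. Because guanylate-binding protein genes resemble each other in sequence, a probe may detect more than 1 of them. The gene that fell, named after its value was seen, was CASP1 (-0.22), the inflammatory caspase. Dropping a single array, whichever of the 6 it was, left 12 to 16 of these genes called higher.

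Of 38 measured ISGF3 targets, 4 rose and 12 fell (10.5% and 31.6%, against 6.64% and 4.49% of all genes), with a median of -0.08. The changes were small. CMPK2, a mitochondrial nucleotide kinase, fell from 9.02 ± 0.05 to 8.62 ± 0.06 (log2 change -0.40, adjusted p = 0.00417), and the exonuclease gene ISG20 from 6.17 ± 0.12 to 5.81 ± 0.07 (-0.36, adjusted p = 0.0222). HERC6, a ubiquitin ligase family gene, was called lower (-0.34) and IFIT5, an RNA-binding protein gene, higher (0.35). With any 1 array left out, 5 to 7 of these genes fell and 1 to 3 rose. ISG20 was uncalled after dropping any array other than DMSO replicate 2 (adjusted p from 0.0503 to 0.0753) and HERC6 with each except CA replicate 3 (0.0784 to 0.0963). IFIT5 lost its call without CA replicate 2 (0.051) or DMSO replicate 2 (0.0514). HERC6 was at -0.09 on the mean of its 2 probe sets (adjusted p = 0.407), and none of them passed the test over all probe sets.

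**Figure D4:**
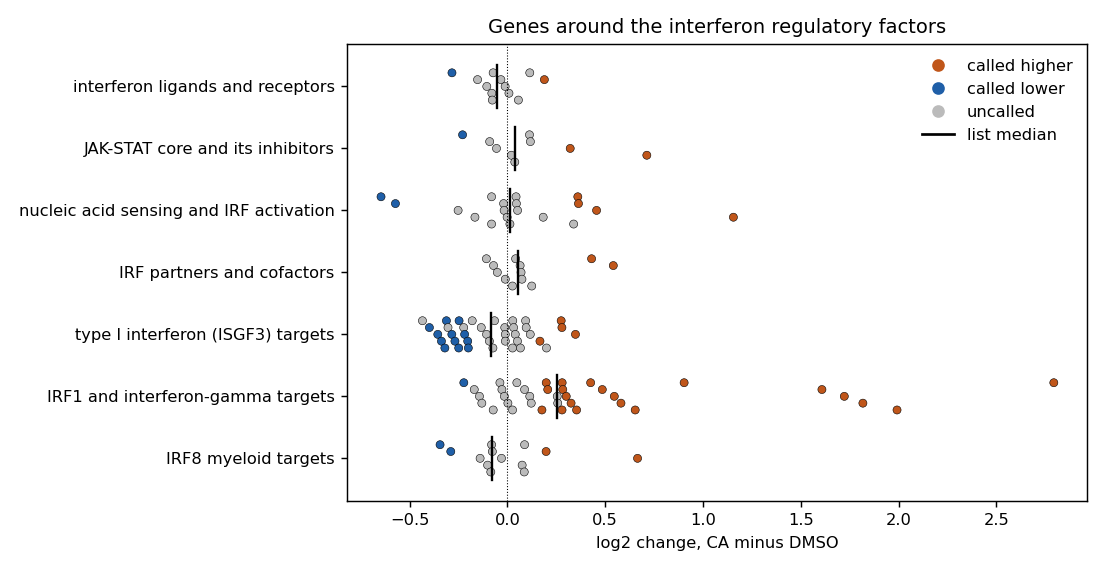
Log2 change, CA minus DMSO (horizontal axis), of the measured genes of 7 lists around the IRFs, with orange points called higher, blue called lower and grey uncalled, and a bar at the list median. In the list of IRF1 and interferon gamma targets 20 of 36 points are orange, and in that of ISGF3 targets 12 of 38 are blue.

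Among genes that sense nucleic acids and activate IRF3, IRF5 and IRF7, 4 of 19 rose and 2 fell (21.1% and 10.5%, median 0.01). Of all genes, 6.64% were called higher and 4.49% lower. SLC15A4 and TASL encode a lysosomal transporter and its adaptor, which together activate IRF5. SLC15A4 rose from 10.59 ± 0.00 to 11.75 ± 0.02 (log2 change 1.16, adjusted p = 2.80e-05) and TASL fell from 11.01 ± 0.07 to 10.37 ± 0.03 (-0.65, adjusted p = 5.20e-04). STING1, the adaptor of cytosolic DNA sensing, fell from 9.18 ± 0.02 to 8.61 ± 0.08 (-0.57, adjusted p = 9.31e-04). CGAS, of the same list and named after its value was seen, was uncalled (0.34, adjusted p = 0.064). Of its 3 probe sets, 2 were called higher in the test over all probe sets. RIGI, a sensor of viral RNA, rose by 0.46 (adjusted p = 0.00448), and stood at 0.18 once _x_at and _s_at probe sets were dropped (0.0582). TASL was called on its single probe set, which ends in _x_at, and STING1 on both of its probe sets.

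Upstream of the IRFs, changes were found in both directions, and 6.64% of all genes were called higher and 4.49% lower. Of 12 interferon ligands and receptors, 1 rose and 1 fell (8.33% each, median -0.05). The mean levels of 4 of the 12 were below the arrays' lower quartile, where little can be read from them. The type I receptor chain IFNAR1 was called lower (-0.28, adjusted p = 0.0394) and IFNAR2 higher (0.19, adjusted p = 0.0418). Leaving out any 1 array ended the call of IFNAR2 (adjusted p of 0.0717 to 0.120), and any except CA replicate 1 that of IFNAR1 (0.0866 to 0.116). IFNAR1 was also uncalled on the mean of its 4 probe sets (-0.12, 0.141), on that of largest variance (0.068) and with arrays centred on reference genes (-0.25, 0.0575), and none of the 4 passed the test over all probe sets. Of 9 measured genes of the JAK-STAT core and its inhibitors, 2 rose and 1 fell (22.2% and 11.1%; median 0.04). SOCS1, a feedback inhibitor of JAK kinases, rose by 0.71 (adjusted p = 0.00756) on 1 of 4 probe sets, and was at 0.18 on their mean (0.168). The phosphatase gene PTPN6 rose by 0.32 (0.00700) and the kinase gene JAK1 fell by 0.23 (0.00881), on 1 of 5 probe sets and uncalled on their mean (-0.15, 0.109).

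Of 12 measured partners and cofactors of IRFs, 2 rose and 0 fell (16.7% higher, median 0.05), against 6.64% and 4.49% of all genes. IKZF1, the lymphoid and myeloid factor Ikaros, rose by 0.43 (adjusted p = 8.58e-04) on 5 of 9 probe sets (uncalled on that of largest variance, 0.41, adjusted p = 0.183), and IRF2BPL, a relative of the IRF2 corepressors, by 0.54 (6.83e-04) on its single probe set. SPI1, which encodes PU.1, the partner of IRF4 and IRF8, was uncalled (0.07, 95% confidence interval -0.09 to 0.23). Of 13 measured myeloid targets of IRF8, 2 rose and 2 fell (15.4% each, median -0.08), against 6.64% and 4.49% of all genes. The Kruppel-like factor KLF4 rose by 0.67 (2.13e-04), on 1 of 2 probe sets, and the death receptor gene FAS by 0.20 (0.0250). The protease gene CTSS fell by 0.34 (0.00583) and the protease inhibitor gene CST3 by 0.29 (0.0113), each on 1 of 3 probe sets. FAS lost its call with each array except CA replicate 2 left out (adjusted p of 0.0623 to 0.0849). None of the 5 FAS probe sets passed the test over all probe sets. CTSS (adjusted p = 0.139) and FAS (0.170) were uncalled on their probe sets of largest variance.

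The genes whose 6 values were most like those of IRF1, by root mean square distance after each gene was centred on its DMSO mean, were RGS16 (0.07), GCH1 (0.09), MS4A4A (0.09), ADAMTS17 (0.11) and HES1 (0.11). Their log2 changes were 1.53, 1.61, 1.58, 1.63 and 1.70, against 1.58 for IRF1. RGS16 (0.23, adjusted p = 0.394) and HES1 (0.0065, 0.965) were uncalled once _x_at and _s_at probe sets were dropped. The 5 most like IRF8 were MAP3K1, MYADM, SOX4, NCF1 and DHRS9, at distances of 0.02 to 0.03 and changes of 0.59 to 0.62, against 0.60 for IRF8. This likeness rests on 6 arrays in 2 groups, so that it mostly reflects a like size of change.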

How the data were processed

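Each probe set has a log2 intensity that the authors deposited after RMA in affy, as the submitters' processing notes name them. RMA corrects background, quantile-normalizes and summarises probes. The sources used here give neither versions nor the arrays normalized as 1 set. The labels' protocols name 2 RNA kits without assigning them to samples. Symbols were updated by Entrez number (41037 of 41091 single-symbol probe sets matched GRCh38.p14). A gene was represented by its probe set of highest mean log2, and no filter was applied. The test of CA against DMSO used limma 3.58.1 under R 4.3.3 (lmFit, eBayes, 2-sided, no covariates) over 19775 genes and over 54613 probe sets, with Benjamini-Hochberg adjustment and calls at an adjusted p under 0.05. The code was tested on simulated data. On arrays the number of arrays, 3 per group, limits precision. The labels do not say that samples came from separate cultures, so p-values measure only their spread, which may be technical. Promoters are from RefSeq.

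Members and lists were chosen with earlier results of these data known. Named were all members, up to 4 called genes of largest change per list, the 3 nearest measured genes on each side of called members, and the 5 genes most like IRF1 and IRF8. Markers and genes said to be named after their values were seen come on top. Alternatives were other probe sets per gene, level filters, normalizations, moderation, array weights, a replicate block, thresholds, and leaving out each array.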

Additional observations from a re-analysis of the deposited data

How the results depend on the processing

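IRF1, IRF7, IRF8 and CARINH were called higher under all refits that measured them, and IRF2 in 12 of 16, and IRF2 was also lost at an adjusted p under 0.01. Their changes ranged over 1.40 to 1.62, 0.46 to 0.51, 0.59 to 0.63, 1.2 to 1.73 and 0.38 to 0.52. Members called higher numbered 4 or 5 and those called lower 0 throughout, and 7 to 9 probe sets rose. Uncalled members changed sign in places. Over fits with 1 array left out, IRF3 ranged from -0.034 to 0.074, IRF4 from -0.11 to 0.054 (its dimmest probe set from -0.086 to 0.027), an IRF5 _s_at probe set from -0.12 to 0.015 and the neighbour IL5 from -0.088 to 0.019. Of the 137 genes of the lists, 35 rose and 19 fell. With 1 array left out 22 to 27 rose and 11 to 12 fell. Dropping _x_at and _s_at probe sets left 105 genes, of which 22 rose and 11 fell. At an adjusted p under 0.01, 21 rose and 7 fell, at 1.2-fold or more 12 fell, and on probe sets of largest variance 12 fell. With the replicate block 8 fell. That block is given as a check only, since same-numbered arrays deviated together little (r of 0.02 to 0.03 over genes) and the labels name no pairing. With it the same 5 members were called. All genes called numbered 2202, against 3814 with an intensity trend and robust moderation, 3453 at a mean log2 of at least 6, 1411 on probe sets of largest variance, 1336 after dropping _x_at and _s_at probe sets, 1118 with the block and 1173 to 1331 with 1 array left out. Higher genes were 59.7% of calls, and 73.0% with arrays centred on reference genes. Signal near or below the lower quartile limits the dimmest probe sets of CARINH and IRF4.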

Other observations

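Promoter letters were also counted over the lists, as a description. Of 15384 genes tested with a promoter in the table, 7.68% held the IRF core and 7.82% the GAS core in the 250 bases before a start. Among ISGF3 targets 22 of 32 held the IRF core and 8 of 32 the GAS core, and among IRF1 and interferon gamma targets 14 of 24 and 9 of 24. Of the ISGF3 targets with a promoter that were called lower, 6 of 11 held the IRF core, against 15 of 19 of those uncalled. Of the IRF1 and interferon gamma targets called higher, 8 of 14 held it, against 6 of 10 of those uncalled. The GAS core was held by 1 of 11 ISGF3 targets called lower, against 7 of 19 uncalled. Among IRF1 and interferon gamma targets, 6 of 14 called higher held the GAS core, against 3 of 10 uncalled. Whether these shares differ was not tested.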
